A study of Mus musculus with 8 samples.

Results

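Basal keratinocytes form the deepest cell layer of the epidermis. The 9 genes described here are Krt5, Krt14, Krt15, Trp63, Itga6, Itgb4, Col17a1, Lama3 and Lamb3, which mark these cells or build the hemidesmosomes that fix them to the basement membrane. They were taken by symbol, with values summed over the transcripts of a symbol, and all 9 were found among 21882 gene symbols in each of 3 deposited tables. The first table holds whole mouse skin from embryonic day 16.5 (E16.5), 2 wild-type libraries against 2 labelled Cyp26b1-/-. The others hold dermis and epidermis from embryonic day 18.5 (E18.5), and in each tissue 1 En1cre;Cyp26b1f/- mutant was set against 1 Cyp26b1f/+ control. The series text speaks of duplicates, but the series lists 1 library per E18.5 group. All embryos were of strain C57BL/6. Cyp26b1 encodes an enzyme that degrades retinoic acid, and the En1cre transgene recombines the floxed allele in the Engrailed lineage, to which much of the trunk dermis belongs. The E18.5 mutant also carried a null allele in all its cells where the control carried a wild-type allele, so the recombination and the lower allele number cannot be told apart. The labels do not list En1cre for the controls, and they do not say how dermis and epidermis were separated or whether libraries came from separate animals.

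Krt5 and Krt14 encode the type II and type I keratins that pair into the filaments of basal cells. Krt15 encodes a further type I keratin of basal cells, known in adult skin from the follicle bulge. Trp63 encodes p63, the transcription factor required for stratified epithelia. In the hemidesmosome, the integrin subunits encoded by Itga6 and Itgb4 and the transmembrane collagen encoded by Col17a1 connect the keratin filaments to the basement membrane. Outside the cell they bind a laminin to which Lama3 contributes the alpha chain and Lamb3 the beta chain.

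In mouse build mm9, Krt14 lies on chromosome 11 from 100064476 to 100068824 and Krt15 on the same chromosome from 99993073 to 99997263, both on the minus strand, in the type I keratin cluster. Krt5 lies in the type II cluster on chromosome 15, from 101537501 to 101543322. Promoter windows from 250 bases before to 50 bases after a transcription start are shown for Krt5, Col17a1 and Lamb3. These genes encode a basal filament protein, a hemidesmosome protein and its laminin ligand. Only Krt5, Krt14, Col17a1 and Lamb3 had a window at hand. That of Krt14, the member with the lowest fold on the log2(FPKM + 1) scale in both E18.5 tissues, is not shown, since its start lies inside the deposited gene. The sequences are from RefSeq (GRCm38.p6), and each was found once, letter for letter, at the mm9 position given. Their starts coincide with the deposited 5′ end of Col17a1 and of Lamb3 and lie 14 bases upstream of that of Krt5. Capitals mark matches to a TATA box (TATAAA) or to the core bound by retinoic acid receptors (AGGTCA), searched on both strands.
Krt5, chr15:101543287-101543586, minus strand: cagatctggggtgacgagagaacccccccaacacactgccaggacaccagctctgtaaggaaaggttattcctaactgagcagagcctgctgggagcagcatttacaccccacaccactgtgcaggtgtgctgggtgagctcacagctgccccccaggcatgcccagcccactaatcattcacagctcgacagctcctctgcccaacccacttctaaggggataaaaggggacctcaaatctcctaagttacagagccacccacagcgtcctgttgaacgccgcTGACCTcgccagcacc
Col17a1, chr19:47766483-47766782, minus strand: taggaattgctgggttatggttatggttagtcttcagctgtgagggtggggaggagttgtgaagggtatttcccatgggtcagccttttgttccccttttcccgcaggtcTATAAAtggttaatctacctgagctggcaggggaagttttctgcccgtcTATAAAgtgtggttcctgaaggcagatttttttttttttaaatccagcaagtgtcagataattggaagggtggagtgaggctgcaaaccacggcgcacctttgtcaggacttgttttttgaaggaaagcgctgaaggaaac
Lamb3, chr1:195127938-195128237, plus strand: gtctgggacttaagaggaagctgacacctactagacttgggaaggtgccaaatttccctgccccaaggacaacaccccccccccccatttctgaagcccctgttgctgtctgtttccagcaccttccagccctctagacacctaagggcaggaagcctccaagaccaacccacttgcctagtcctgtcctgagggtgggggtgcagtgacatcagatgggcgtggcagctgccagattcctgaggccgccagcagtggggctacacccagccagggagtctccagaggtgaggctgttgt
The Col17a1 window held 2 TATAAA matches, beginning 140 and 91 bases before the start, where 13.6% of 32851 RefSeq promoter windows of this length held at least 1. The Krt5 window held AGGTCA once, on the reverse strand and after the start, a match present in 16.3% of windows. In the Lamb3 window neither of these was found. The letters of an AP-1 site (TGANTCA, 7.81% of windows), an AP-2 site (GCCNNNGGC, 16.6%), a GC box (GGGCGG, 35.7%) and the p53 family CATG pair (0.712%) were not in any of the 3 windows.

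Values are in FPKM, fragments scaled by transcript length and library size, so the depth is unknown. Each E16.5 value pools the 2 libraries of a group, so the spread between libraries cannot be seen. The targeted gene was higher, not lower, in each mutant column. Cyp26b1 was listed at 35 and 58.2 FPKM in wild-type and labelled-null skin, at 54.2 and 102 in control and mutant dermis, and at 4.97 and 13.7 in control and mutant epidermis, so the directions below rest on the labels. Values over whole transcripts cannot show a partial deletion. The median gene differed by a log2 fold of 0.43 between the E16.5 groups, 0.12 in dermis and -0.18 in epidermis on the log2(FPKM + 1) scale, and folds are therefore given relative to the median gene. A pseudocount of 1 understates the change of low genes.

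The keratins stood far above the other members in every group. Krt5, the filament partner of Krt14, was listed at 1417 FPKM in wild-type and 1228 in labelled-null E16.5 skin, at 6265 in control and 1806 in mutant dermis, and at 2634 in control and 704 in mutant epidermis. It was the highest member in every column except the mutant epidermis, where Krt15 at 815 FPKM was above it. Col17a1 was the highest of the hemidesmosome and laminin genes in all 6 columns. Lama3 was among the lowest 2 members throughout, from 1.79 to 9.41 FPKM. No spread between libraries is known, so neighbours in these orders cannot be separated.

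**Figure D1:**
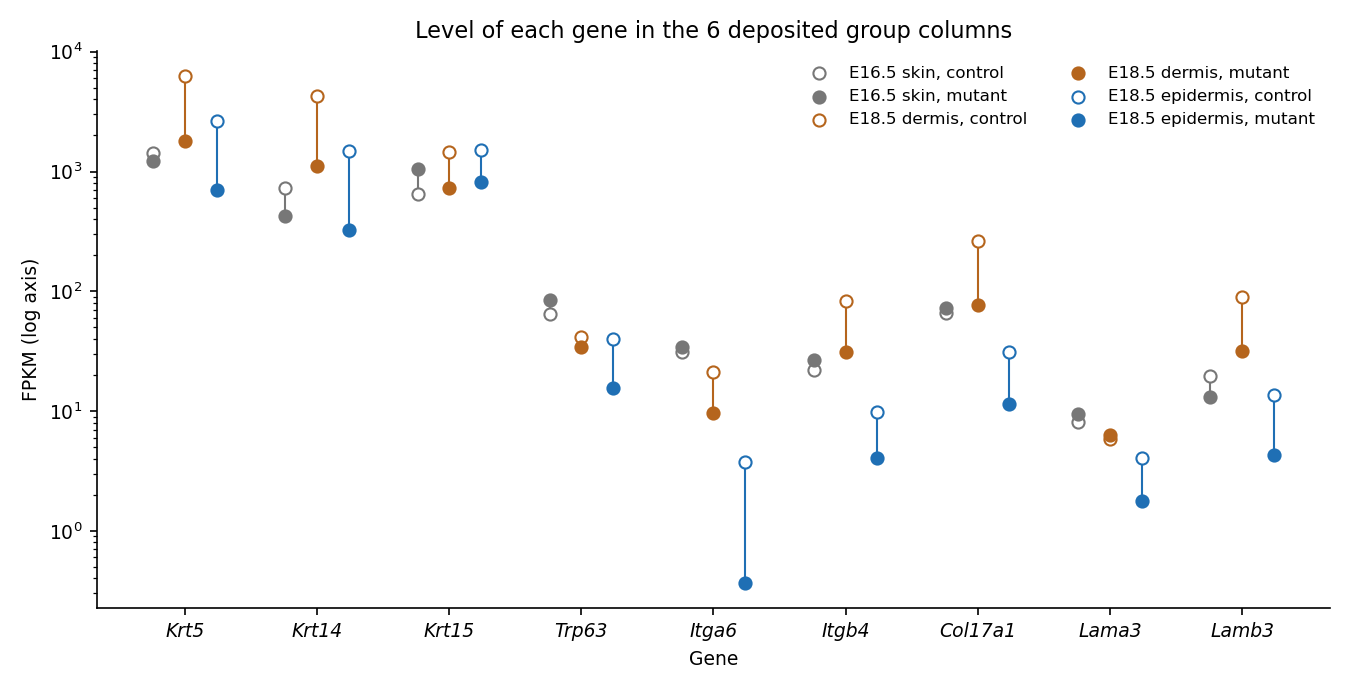
FPKM of each gene on a log axis in the 6 group columns, with open points for control and filled points for mutant groups, joined within a comparison; E16.5 points pool 2 libraries, E18.5 points are 1 library, and the E16.5 Trp63 values come from rows marked as failed estimates. In the E18.5 pairs the filled point lies below the open one for all genes in epidermis and for all but Lama3 in dermis.

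At E18.5 the library labelled control dermis held more of these transcripts than the library labelled control epidermis for 8 of the 9 genes. The 2 tables were normalised separately, so the following ratios are descriptions. Col17a1 was listed at 261 FPKM in control dermis and 30.9 in control epidermis (ratio 8.47). Itgb4 was at 82.5 and 9.88 FPKM (8.35), and Lamb3 at 89.9 and 13.6 FPKM (6.6). The integrin and laminin genes thus ran higher on the dermal side of the split. Krt14 was at 4276 and 1496 FPKM (2.86), whereas Krt15 was at 1447 and 1525 FPKM (0.949). Suprabasal genes, which mark the layers above, lay the other way: 0 of 5 measured in both tables were higher in control dermis, with a median ratio of 0.0332, and Calm4 was at 127 and 10246 FPKM. Fibroblast genes were higher in control dermis for 7 of 7 (median ratio 14.6), and outer root sheath and follicle stem genes for 8 of 8 (median ratio 9.29). General epithelial genes were higher in control dermis for 2 of 7 (median ratio 0.482). Krt1, Krt10 and Sbsn were not among the 5 suprabasal genes, since their epidermis rows were marked as failed estimates. Krt1 and Krt10 were at 1446 and 2011 FPKM in control dermis. Transcripts of dermal cells and of basal, suprabasal and follicle epithelium were thus measured in the same dermis libraries.

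In E16.5 skin 2 of the 8 members that could be tested fell relative to the median transcript, Krt14 and Lamb3, and 0 rose. Of 16303 tested genes 9.94% fell and 8.32% rose by the same test, which divides the deposited log2 fold minus its median (0.47) by the standard error (SE) that the deposited statistic implies, with Benjamini-Hochberg adjustment over all transcripts and a threshold of 0.05. At an unadjusted p of 0.05, 6 members were lower, where 15.3% of all tested genes were, and 0 were higher, where 13.1% were. Among the 6, Itgb4 counts only through its minor transcript, at 1.1 and 0.87 FPKM, and its main transcript did not pass. Trp63 was not tested, since all 8 of its transcripts were marked as failed estimates.

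Krt14 went from 734 to 426 FPKM, a log2 fold of -1.21 relative to the median gene, and 2.29% of genes had a lower fold. The recentred deposited log2 fold was -1.26 (SE 0.18, adjusted p = 5.4e-11 from the authors' Cuffdiff statistic, recentred). Krt5, which forms the same filaments, went from 1417 to 1228 FPKM and did not pass the test (-0.68, SE 0.27, adjusted p = 0.0573 from the authors' Cuffdiff statistic, recentred). Krt15 was the member with the highest fold, listed at 645 FPKM in wild-type and 1057 FPKM in labelled-null skin, a log2 fold of 0.28 relative to the median gene that was not called (adjusted p = 0.471 from the authors' Cuffdiff statistic, recentred). As listed, Krt14 was lower and Krt15 higher in labelled-null skin. Under the authors' deposited call, without centring, Krt15 was higher (log2 fold 0.71, q = 0.0009 in the authors' deposited table) and Krt14 and Lamb3 were lower, where 54.7% of genes were called higher and 3.46% lower.

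Lamb3, the laminin beta chain, went from 19.8 to 13 FPKM at E16.5, a log2 fold with 2.84% of genes lower. Recentred, the deposited log2 fold was -1.08 (SE 0.15, adjusted p = 1.6e-11 from the authors' Cuffdiff statistic, recentred). The partner chain Lama3 was listed at 8.12 and 9.41 FPKM, and the test did not call it (-0.26, SE 0.14). Among the hemidesmosome genes, Col17a1 was listed at 65.8 and 72.5 FPKM (-0.33, SE 0.15), Itga6 at 31.4 and 34.4 FPKM (-0.34, SE 0.14) and the main Itgb4 transcript, NM_133663, at 20.9 and 25.7 FPKM (-0.18, SE 0.14). These values are higher in labelled-null skin as listed and lower relative to the median transcript, and none was called on either scale. Over the 8 members the median log2 fold was -0.30 relative to the median gene and 0.13 on the deposited scaling, against 0.43 for all genes. General epithelial genes such as Cdh1 and Krt18 were higher in the same libraries, with 3 of 7 called rose and 0 fell, and relative to their median the members' median was -0.57. Suprabasal genes had a median of -0.64 relative to the median gene, with 4 of 6 tested called fell and 0 rose. Outer root sheath and follicle stem genes had a median of -0.47, with 5 of 7 called fell and 1 rose. A low median was thus not particular to the members. Of all tested genes 9.94% fell and 8.32% rose. Ocular surface and lens genes went from a summed 9.13 to 1015 FPKM, with 5 of 7 rising, and oral mucosa genes from 258 to 484 FPKM, with 1 rising and 1 falling of 4. Most of the ocular sum lay in the lens crystallins Cryaa (3.75 and 476 FPKM) and Cryba1 (0.99 and 509 FPKM). The surface genes Krt12 (1.09 and 2.86 FPKM) and Aldh3a1 (0.41 and 0.58 FPKM) were not called. None of the 11 genes of both lists was at 0 in either group. Basal cells of the eye surface and mouth also use Krt5, Krt14 and Trp63, and the part of those tissues in the E16.5 values was not tested. In whole tissue, fewer basal cells and less RNA per basal cell cannot be told apart, and this holds for each comparison here.

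**Figure D2:**
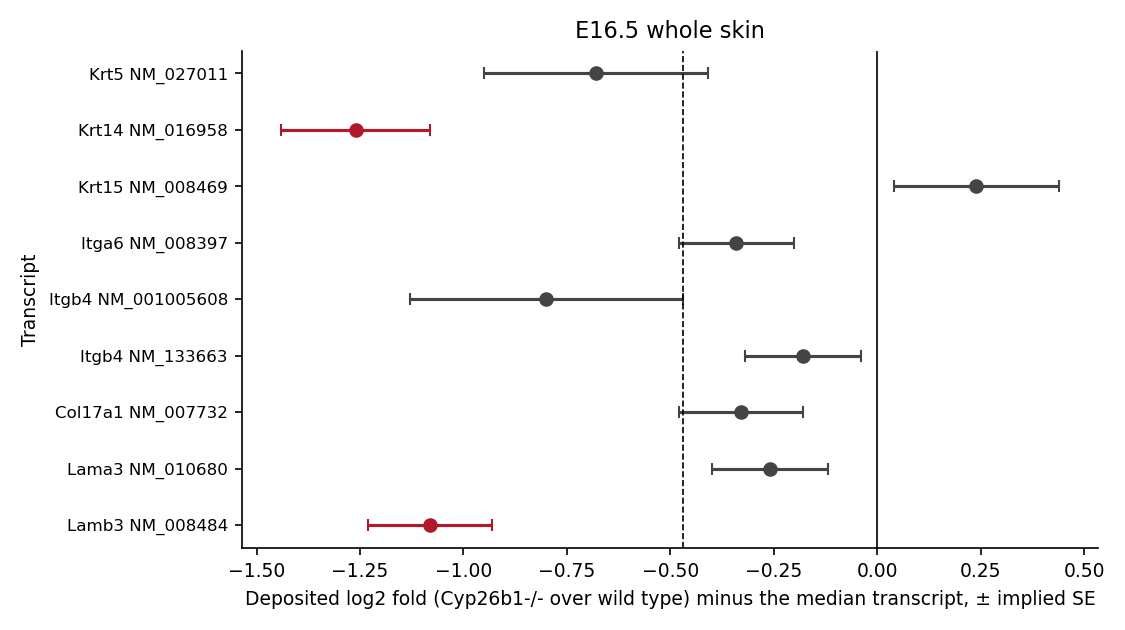
Deposited log2 fold of each tested transcript in E16.5 skin minus the median transcript, with bars of 1 implied SE; the solid line at 0 is the median transcript and the dashed line is an unchanged listed FPKM. Krt14 and Lamb3, in red, are the transcripts called at an adjusted p of 0.05, and Krt15 is the one to the right of the solid line.

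In E18.5 epidermis all 9 members were lower in the mutant than in the control library, and 6 were at least 2-fold lower relative to the median gene, where 4.86% of 11362 genes were. None was 2-fold higher, where 3.49% of genes were. With 1 library per group there is no test, and these values describe 2 libraries. Krt14 was at 1496 FPKM in the control and 322 in the mutant (log2 fold -2.04 relative to the median gene), with 0.625% of genes lower. Krt5 was at 2634 and 704 FPKM (-1.72). Krt15 was at 1525 and 815 FPKM (-0.72), the smallest difference of the 3 keratins. The keratin pair of basal cells thus differed more than the third keratin did.

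The anchoring genes of the epidermis libraries were lower too, at much lower levels. Itga6 was at 3.78 FPKM in the control and 0.37 in the mutant (-1.62, or -2.84 with a pseudocount of 0.1). At that pseudocount Krt14 was at -2.01, and the lowest member was Itga6. Itgb4, its partner subunit, was at 9.88 and 4.08 FPKM (-0.92). Col17a1 was at 30.9 and 11.5 FPKM (-1.17). Both laminin chains followed, Lamb3 with 13.6 and 4.28 FPKM (-1.29) and Lama3 with 4.04 and 1.79 FPKM (-0.67). Trp63, the regulator, was at 39.7 and 15.5 FPKM (-1.12), and at -0.47, short of 2-fold, when its transcript of highest mean FPKM was taken alone. The median over the 9 was -1.17. General epithelial genes had a median of 0.25 and suprabasal genes of -0.15, so the members' median was -1.42 relative to the epithelial list, with 7 of 9 at least 2-fold lower. The epithelial list as centre was chosen after the data were seen, and the share of all genes 2-fold lower on it was not counted. Fibroblast genes were lower in the same mutant library: the 7 measured in every table summed to 163 FPKM in the control and 66.5 in the mutant, and Col1a1, a main dermal collagen, was at 149 and 27.7 FPKM. Outer root sheath and follicle stem genes summed to 1024 and 317 FPKM over 7 genes. None of the general epithelial, fibroblast or follicle genes was at 0 in either library. The suprabasal median rests on 5 of 8 genes, since Krt1 and Krt10 were listed at 0 in both libraries and Sbsn at 8344 and 0 FPKM, in rows marked as failed estimates. The part of other cells in the epidermal values was not tested.

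**Figure D3:**
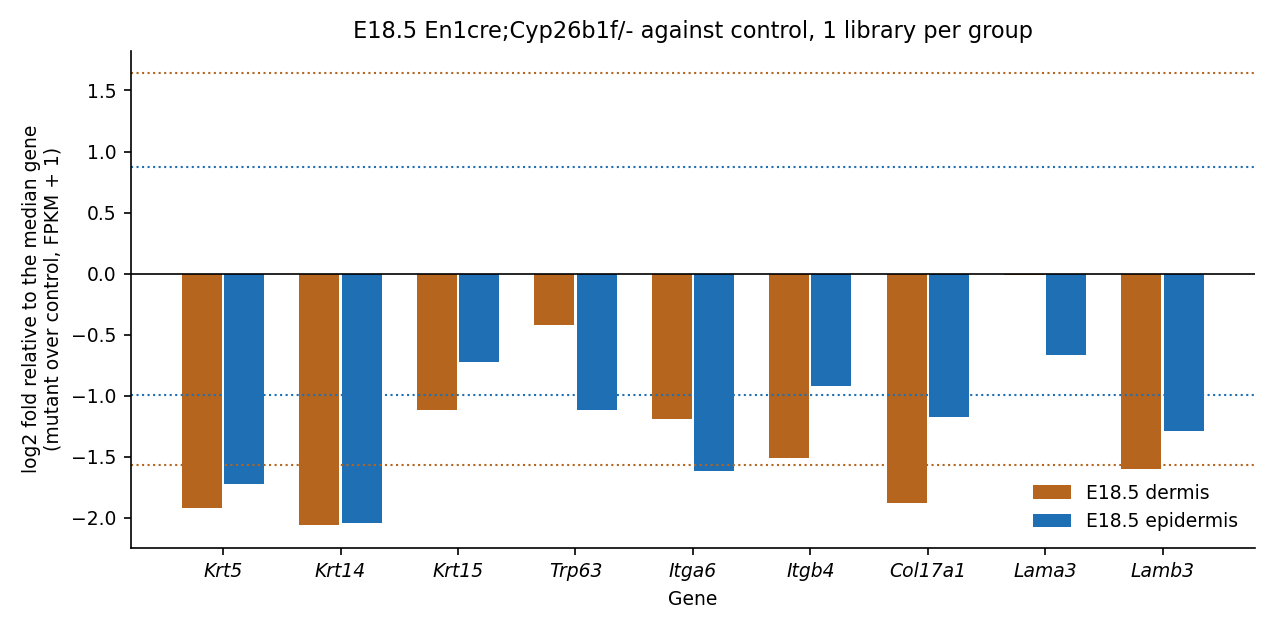
Log2 fold of each gene relative to the median gene in E18.5 dermis and epidermis (mutant over control, FPKM + 1), 1 library per group; dotted lines mark the 5th and 95th percentile of all genes in the tissue of the same colour. Bars reach from -0.01 for Lama3 in dermis, which is too short to see, to -2.06 for Krt14 in dermis.

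In E18.5 dermis 7 of the 9 members were at least 2-fold lower in the mutant relative to the median gene, where 13.9% of 13398 genes were, and 0 were 2-fold higher, where 14.0% were. Krt14 was at 4276 FPKM in the control and 1115 in the mutant (-2.06), Krt5 at 6265 and 1806 FPKM (-1.92) and Krt15 at 1447 and 725 FPKM (-1.12). As in epidermis, Krt15 differed least among the keratins. Col17a1 was at 261 and 76.6 FPKM (-1.88). Lamb3 was at 89.9 and 31.6 FPKM (-1.60) and Itgb4 at 82.5 and 30.9 FPKM (-1.51). Itga6 was at 21.2 and 9.64 FPKM (-1.19). The exceptions were the alpha chain of the laminin and the regulator, with Lama3 at 5.81 and 6.34 FPKM (-0.01, and 0.11 without centring) and Trp63 at 41.9 and 34 FPKM (-0.42).

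Other epithelial genes were lower in the same mutant dermis library. General epithelial genes had a median of -0.65, suprabasal genes of -1.61 and outer root sheath and follicle stem genes of -1.33, and Krt1 and Krt10, the keratins of the spinous layer, were at 1446 and 454 FPKM and at 2011 and 578 FPKM. Relative to the general epithelial genes, 3 of the 9 members (Krt5, Krt14 and Col17a1) were at least 2-fold lower, in place of 7. The members' median was then -0.86, and Trp63 and Lama3 lay above that list, at 0.24 and 0.64. This centre was chosen after the data were seen, and the share of all genes 2-fold lower on it was not counted. It rests partly on Krt18 (1.08 and 0.97 FPKM, -0.2) and Krt8 (3.18 and 2.66 FPKM, -0.31), low genes whose change the pseudocount understates. Esrp2, at 80.6 and 17 FPKM, was at -2.3, so the count of 3 depends on which genes form the list. Muscle genes summed to 1375 FPKM in the control and 3967 in the mutant over 5 genes, and fibroblast genes to 2016 and 2525 over 7, while the 6 endothelial genes had a median of 1.53, with none of these genes at 0. The fibroblast genes Col1a1, Col1a2 and Col3a1 were left out of that sum, since they were listed at 0 in the mutant in rows marked as failed. The share of epithelium, muscle and vessels in each dermis library was not measured, and its part in these values was not tested.

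Krt5, Krt14, Itga6, Col17a1 and Lamb3 were at least 2-fold lower in both E18.5 tissues, 5 of the 9 members, against 1.69% of 10838 genes measured in both. The dermis and epidermis tables share no library. At E16.5 Krt14 and Lamb3 of these 5 were called.

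Ratios between 2 genes in the same column do not depend on the scaling of a library. Krt15 over Krt14 was 0.878 in wild-type and 2.48 in labelled-null E16.5 skin, 0.338 and 0.65 in control and mutant dermis, and 1.02 and 2.53 in control and mutant epidermis. It was higher in the mutant by 2.83, 1.92 and 2.49 times. At E16.5 this is a log2 difference of 1.5 with an SE of 0.26, if the errors of both transcripts are independent. Krt15 and Krt14 had the highest and lowest E16.5 folds of the members, so this difference restates those folds and is no separate test. Krt15 over Krt5 was higher by 1.89, 1.74 and 2 times. The listed proportion of Krt15 to Krt14 thus differed between each mutant column and its control. This was not particular to type I keratins, since Col17a1 over Krt14 was also higher, by 1.9, 1.12 and 1.74 times. The E18.5 ratios come from 1 library per group, so their spread is unknown. Krt14 over Krt5 was lower in each mutant column, at 0.347 against 0.518 in E16.5 skin (log2 difference -0.58, SE 0.32), 0.617 against 0.683 in dermis and 0.457 against 0.568 in epidermis. The E16.5 difference was less than 2 SE, and the dermis ratio was 0.904 of its control, so a shared direction is not established. Lamb3 over Lama3 was lower as well, at 1.38 against 2.44 in E16.5 skin (log2 difference -0.82, SE 0.20), 4.98 against 15.5 in dermis and 2.39 against 3.37 in epidermis. These SE too assume independent errors. Since Lamb3 was itself called lower at E16.5, that difference restates its fold and is no separate test. The mutant epidermis ratio rests on Lama3 at 1.79 FPKM. Itgb4 over Itga6 had no common direction, with 0.772 against 0.699, 3.21 against 3.88 and 11 against 2.61 in the same order. The high value in mutant epidermis rests on an Itga6 level of 0.37 FPKM.

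**Figure D4:**
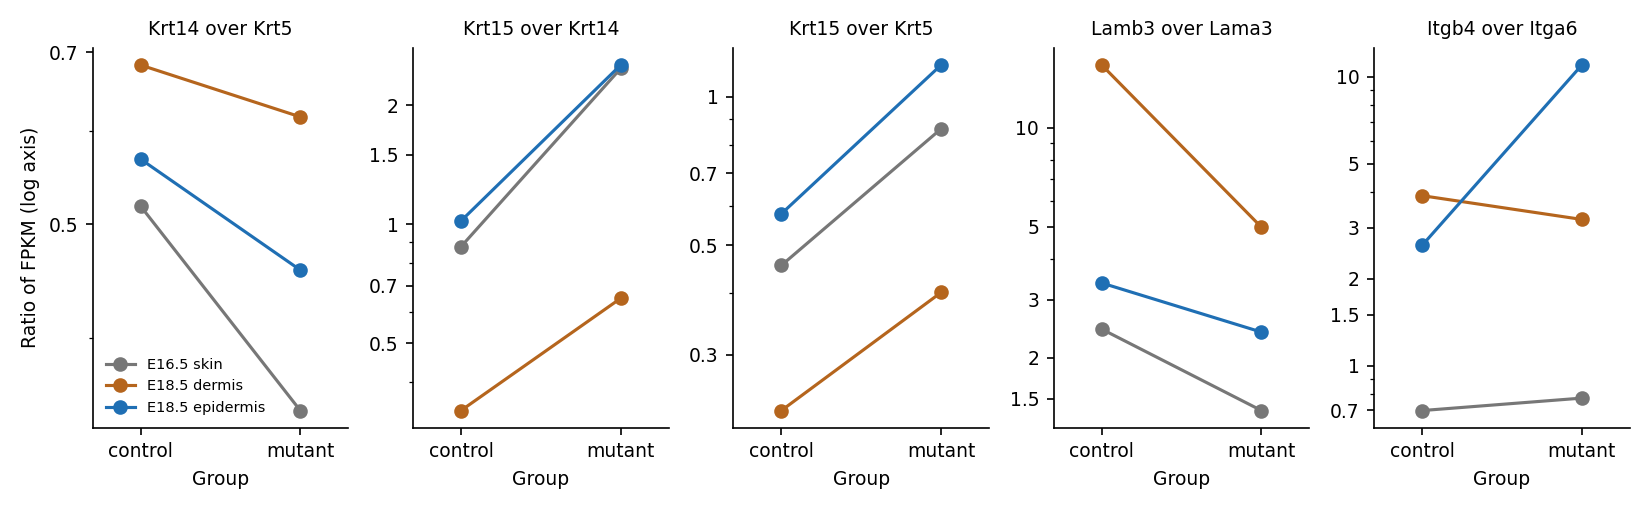
Ratio of FPKM between pairs of genes in the control and mutant column of each comparison, on log axes that differ between panels; E16.5 points pool 2 libraries and E18.5 points are 1 library. Krt15 over Krt14 and Krt15 over Krt5 are higher, and Krt14 over Krt5 and Lamb3 over Lama3 lower, in the mutant column of all 3 comparisons. The E18.5 differences have no known spread, and that of Krt14 over Krt5 in dermis is small (0.617 against 0.683).

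Trp63 has 8 listed transcripts over chromosome 16, 25683851 to 25892174 (mm9, plus strand), and the FPKM were spread over them differently in each table. At E16.5 NM_011641 and NM_001127264 held most of the signal, listed at 30.1 and 24.4 FPKM in wild-type and 39.3 and 29.1 FPKM in labelled-null skin, in rows marked failed. With those rows kept, the summed Trp63 fold was -0.04 relative to the median gene. In control dermis NM_011641 was at 16.2 and NM_001127263 at 16.1 FPKM. The mutant dermis had 4.92 and 13.3 FPKM of these, while NM_001127265 was at 1.25 in the control and 11.1 in the mutant. NM_001127265 was the one transcript listed higher in mutant dermis, which the summed value hides. In epidermis the 5 transcripts above 1 FPKM in the control were each lower in the mutant, with NM_001127263 at 14.3 and 8.7 FPKM and NM_011641 at 11.6 and 2.97 FPKM. NM_001127259, NM_001127260 and NM_001127261 were at most 0.71 FPKM in every column. Overlapping isoforms share reads, so the split between transcripts is an estimate.

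Partners of the hemidesmosome and of cell-matrix adhesion formed a list of 8 genes. At E16.5, 0 rose and 2 fell of 7 tested, where 8.32% of all tested genes rose and 9.94% fell. The median was -0.03 relative to the median gene and 0.40 without centring. Cd151, a tetraspanin that binds laminin-receptor integrins, was called through 1 transcript, and its summed fold was -0.11. Itgb1, the common beta subunit, was listed at 144 and 189 FPKM, and Fermt1, which encodes kindlin of epithelia, at 5.17 and 8.99 FPKM, and neither was called. As called in the authors' deposited table, 6 of the 7 were higher and 0 lower, where 54.7% of genes were called higher and 3.46% lower.

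In E18.5 dermis 2 of 7 were at least 2-fold lower, where 13.9% of all genes were, and 1 higher, where 14.0% were. The median was -0.61. Plec, the plakin that ties keratin to the integrin, was at 111 and 51.3 FPKM (-1.22) and Dst, another hemidesmosomal plakin, at 11.5 and 5.79 FPKM (-1.0). Itga3 was at 39.8 and 24.8 FPKM (-0.78), and Itgb1 at 24.6 and 78.8 FPKM (1.52). In epidermis 3 of 7 were at least 2-fold lower, where 4.86% of all genes were, with a median of -0.97. Itgb1 was at 4.46 and 1.12 FPKM (-1.19), Cd151 at 26 and 10.8 (-1.01) and Dst at 2.03 and 0.37 (-0.97).

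Basement membrane genes, many of them also made by dermal cells and vessels, had medians near 0 at E16.5 and in dermis. At E16.5, 0 rose and 3 fell of 15 tested, with a median of -0.18 that was 0.25 without centring (5 higher and 1 lower as called in the authors' deposited table). Col7a1, the anchoring fibril collagen, went from 73.2 to 61.2 FPKM (-0.68, adjusted p = 0.000188 from the authors' Cuffdiff statistic, recentred). Frem2, of the Fraser complex, was called lower relative to the median transcript while listed at 5.95 and 6.03 FPKM (-0.41, adjusted p = 0.0105 from the authors' Cuffdiff statistic, recentred). Col4a1 was listed at 232 and 236 FPKM and Hspg2, which encodes perlecan, at 64.3 and 66 FPKM, without a call. In dermis 1 of 15 was at least 2-fold lower, Lama5, at 93 and 37.1 FPKM (-1.42), and 0 were higher, with a median of -0.15. Of all genes 13.9% were 2-fold lower and 14.0% higher. Frem2 was at 12.6 and 7.54 FPKM (-0.79), Col4a6 at 4.2 and 2.68 (-0.62) and Hspg2 at 216 and 156 (-0.59). In epidermis 6 of 14 were at least 2-fold lower, where 4.86% of all genes were, with a median of -0.82. The lowest were Col4a1 at 12.7 and 3.22 FPKM (-1.52), Lamc1 at 6.55 and 1.4 (-1.48), Col4a2 at 7.8 and 1.89 (-1.43) and Lamb1 at 4.21 and 0.82 (-1.34). These stand beside the fibroblast values of the same epidermis libraries given above.

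Genes linked to p63 in epidermal development formed a list of 8. At E16.5, 1 rose and 2 fell of 8 tested, where 8.32% of all tested genes rose and 9.94% fell. Dlx3, a homeobox regulator of skin and hair, fell from 24.1 to 16.5 FPKM (-0.95, adjusted p = 1.2e-09 from the authors' Cuffdiff statistic, recentred), and Satb1, a chromatin organiser, was called lower (summed fold -0.32). The median was -0.27, and 0.16 without centring, and 2 were higher and 2 lower as called in the authors' deposited table. Jag2, a Notch ligand of basal cells, was listed at 26.5 and 29.4 FPKM without a call. In dermis 5 of 8 were at least 2-fold lower, where 13.9% of all genes were, with a median of -1.5. Dlx3 was at 95.9 and 15.6 FPKM (-2.67), Sfn at 804 and 142 (-2.61) and Jag2 at 191 and 43.9 (-2.22). The epidermis had 1 of 8 at least 2-fold lower, where 4.86% of all genes were. This was Jag2, at 11.1 and 3.91 FPKM (-1.13), and the list had a median of -0.09. Fgfr2 was at 10.6 and 5.87 FPKM (-0.58), Chuk at 2.14 and 1.15 (-0.37) and Dlx3 at 57 and 73.3 (0.54).

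**Figure D5:**
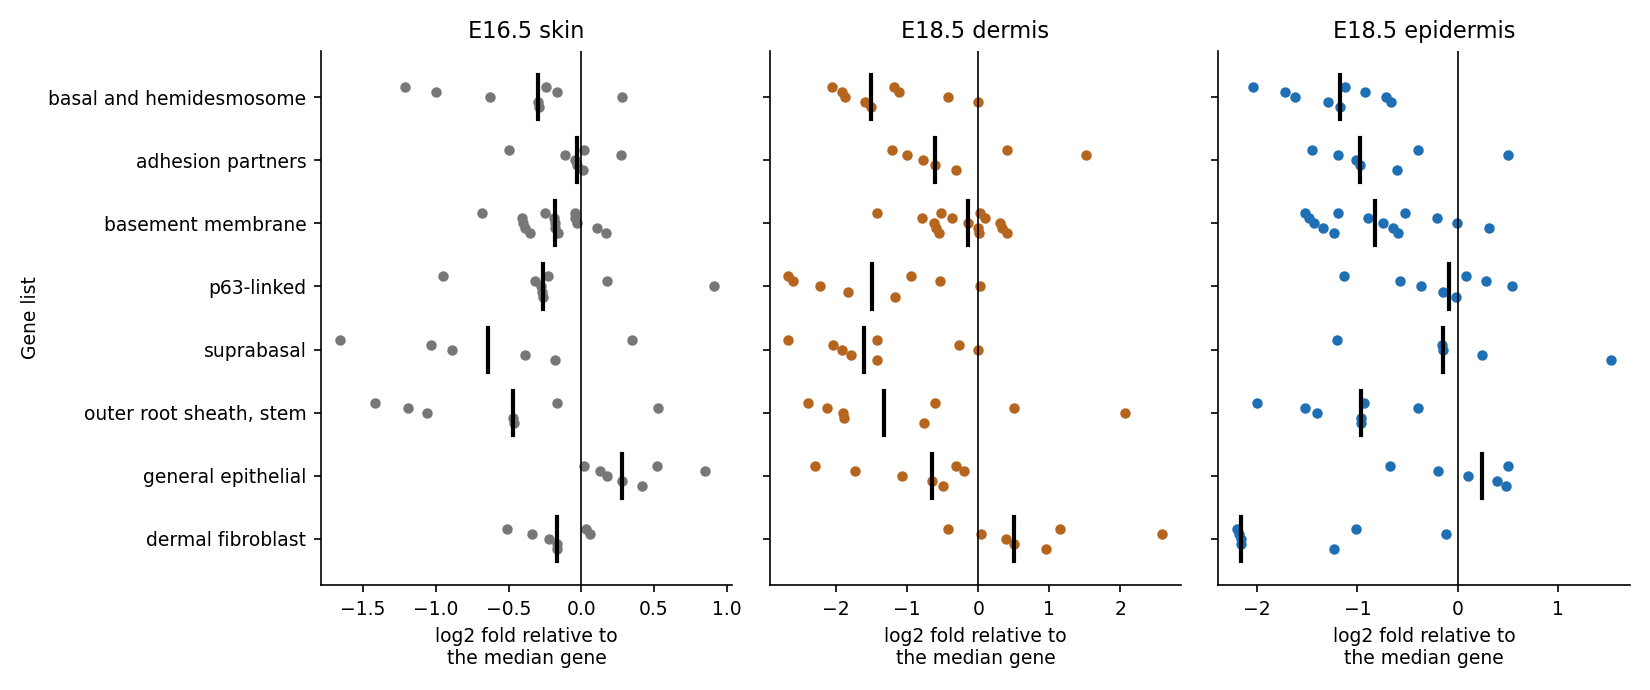
Log2 fold of each gene of 8 lists relative to the median gene (vertical line at 0) in the 3 comparisons; points are genes reaching 1 FPKM in a group, and the black bar is the median of the list. In epidermis the basal and hemidesmosome list has a median of -1.17 and the general epithelial list of 0.25, while in dermis both lie below 0, at -1.51 and -0.65.

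The members shared a profile over the 6 columns to different degrees. On log2(FPKM + 1) centred per gene, Pearson's r to the mean profile of 8 members (without Trp63) was 0.984 for Col17a1, 0.969 for Itgb4 and 0.956 for Lamb3, but 0.364 for Krt15, whose highest level was only 2.37 times its lowest. Each member is part of that mean, so its r is partly with itself. Over 10151 other genes with at least 10 FPKM in some column, the profiles most like the mean were those of Ptch1 (r = 0.998), Sostdc1 (0.983), Frem2 (0.980), Crym (0.979) and Lmo1 (0.978). Ptch1, a Hedgehog receptor, was listed at 21 and 25.9 FPKM in E16.5 skin, 118 and 23.4 in dermis and 14.2 and 1.84 in epidermis, control first. These correlations are over 6 columns from separately normalised tables, share their libraries and are given as descriptions.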

How the data were processed

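RNA of 8 libraries of embryonic mouse skin was extracted with Trizol and made into libraries with an Illumina TruSeq kit, per the labels' protocols. The submitters' processing notes name Cuffdiff 1.3.0, Cufflinks, Bowtie 0.12.7.0 and TopHat 1.3.2 and the mouse build mm9, without settings. The authors deposited, per the file headers, FPKM per RefSeq transcript, a log2 fold without pseudocount, a test statistic (a score whose sign is nearly always opposite to the fold), p-values and q-values. The log2 fold and score columns hold placeholder extremes where a value is 0, so they were treated as other numbers, and such transcripts kept the authors' deposited call.

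FPKM were summed per symbol, and genes with any row whose status marks a failed estimate were left out of folds. Folds are log2((mutant + 1)/(control + 1)) minus the median over genes reaching 1 FPKM in a group. For E16.5, the SE was the deposited fold divided by the statistic. Where the statistic was below 0.05 in size (202 transcripts), the 0.9 quantile of the SE of 101 transcripts of like level was used. It measures model error in Cuffdiff and no spread of animals. The fold minus the median of tested transcripts, divided by this SE, gave a two-sided normal p, adjusted by Benjamini-Hochberg. A gene was called when at least 1 transcript was called and none in the opposite direction. For E18.5 no p was computed, and 2-fold differences were counted. Named beside the members were, per list and comparison, the 4 genes with the largest fold, and the 5 genes most like the members' profile. Of the genes this rule takes, 2 are not reported here by name. Other genes named (Krt1, Krt10, Sbsn, Calm4, Col1a1, Col1a2, Col3a1, Cdh1, Krt8, Krt18, Esrp2, Cryaa, Cryba1, Krt12, Aldh3a1 and the targeted gene) were chosen after their values were seen. The members and lists were chosen with earlier results of these data known. Of 10 p63-linked symbols listed, 8 were used, and the Itgb4, Trp63 and list values rest on the deposited gene names. No p-value here measures variation between embryos. Python 3.11.15, pandas 2.3.3, numpy 2.4.6 and scipy 1.17.1 were used. How strand was handled is not stated here, so overlapping genes may share reads. Alternatives tried were another pseudocount, filter, centring, threshold and transcript choice.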

Additional observations from a re-analysis of the deposited data

Results flagged for a closer look

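The 9 members and lists of 8 partner, 15 basement membrane and 8 p63-linked genes were searched for opposite directions at E18.5. Of these, 9 genes lay on opposite sides of the median gene in the dermis and epidermis comparisons. Each had at least a 2-fold difference in 1 of the tissues. The share of all genes that meet this rule was not counted. In dermis alone 13.9% of all genes were at least 2-fold lower and 14.0% higher, so the 9 are no result about these lists. The difference between tissues was not tested, since each tissue had 1 library per group, and none of the 9 is a member. Higher in mutant dermis and lower in mutant epidermis, as log2 folds relative to the median gene, were Itgb1 (1.52 and -1.19), Cd151 (0.40 and -1.01), Lamb1 (0.34 and -1.34), Nid1 (0.31 and -1.23), Lamc1 (0.10 and -1.48) and Col4a1 (0.01 and -1.52). In dermis Lamc1 and Col4a1 were all but at the median gene. Lower in mutant dermis and higher in mutant epidermis were Plec (-1.22 and 0.50), Perp (-1.17 and 0.28) and Dlx3 (-2.67 and 0.54).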

How the results depend on the processing

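The members' median fold in E16.5 skin depended on the scaling. It was -0.30 relative to the median gene, 0.13 without centring, and -0.12 with no filter on low values, which moves the median gene. Relative to the general epithelial genes, an alternative chosen after seeing the data, it was -0.57. Without centring, the deposited log2 folds of Itga6 (0.13), Itgb4 (0.30), Col17a1 (0.14) and Lama3 (0.21) changed sign, none of them called on either scale (with no filter, so did the summed Itgb4 fold, 0.01), and 1 member, Krt15, was called higher in place of 0. Krt14 and Lamb3 were called lower under all 4 alternative call rules run. In E18.5 dermis, 6 or 7 members were 2-fold lower under the other alternatives and 3 relative to the general epithelial genes. In E18.5 epidermis the count was 5 to 7, and 9 at 1.5-fold. Values were set against the median implied SE of the members. No paired analysis was possible because each deposited E16.5 column merges its group's libraries and the E18.5 groups have 1 library each, and for the same reason no library could be left out. The depth is unknown, so levels near 0, such as Itga6 in mutant epidermis, have unknown counting error.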
